A study of Mus musculus with 15 samples.

Results

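The Slc25 family of mitochondrial carriers was followed through RNA-Seq libraries of dissected mouse kidney tubules and of whole mouse kidney. Its members were taken as every gene whose symbol is Slc25a followed by a number, without pseudogenes, which gave 47 of the 47069 genes in the table. The 15 libraries came from male C57BL/6 mice that were 2 months old, with no treatment given in the labels. Dissected proximal tubules labelled PTS2 made up 12 libraries, in 3 sets of 4 replicates named m1, m2 and m3, and whole kidney the other 3. The labels give neither the meaning of the letter m nor whether replicates came from separate animals or from pools, so p-values measure the spread between these libraries, which may be technical. Values are TPM, a transcript abundance scaled to transcript length and to a common total, so that levels of different genes can be compared within a library.

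Slc25 carriers sit mainly in the inner mitochondrial membrane, where each moves a small set of substrates between the cytosol and the matrix: ADP and ATP, phosphate, citrate and other acids, amino acids, carnitine esters, cofactors or iron. They are made in the cytosol and inserted into the membrane by the carrier import machinery. The proximal tubule reabsorbs most of the filtered load, draws its ATP largely from oxidation of fatty acids and other fuels, and makes glucose and ammonia from glutamine.

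The PTS2 label was checked against markers of the proximal tubule and of its segments. Of 5 general proximal tubule markers, 4 had a lower mean in the tubules than in whole kidney. By limma, Slc34a1 (-0.49), Lrp2 (-0.04), Cubn (-0.05) and Aqp1 (-0.05) did not pass. Slc27a2 was higher (0.98, adjusted p = 7.39e-06). The summed TPM of 2 markers of the early S1 segment was 0.01 to 1.49 in the tubules and 699 to 780 in whole kidney, while 2 markers of the late S3 segment summed to 2011 to 3699 in the tubules and 935 to 1209 in whole kidney. The S3 markers Slc7a13 and Slc22a7 were each higher in the tubules (1.22 and 1.84, adjusted p = 2.81e-07 and 1.19e-05 by limma). The 2 markers of the middle S2 segment differed from each other. Slc22a6 was at 585 ± 228 TPM in the tubules and 486 TPM in whole kidney (0.17, adjusted p = 0.670 by limma). Slc22a8 was lower in every tubule than in every kidney library, at 68.0 ± 42.2 against 272 TPM (-2.21, adjusted p = 0.000882 by limma), which goes against the label. The higher S3 markers also go against it, so PTS2 is used below as a label only. Of 25 markers of other kidney cell types, 24 were lower in every tubule than in every kidney library. The exception, the macrophage marker Csf1r, was called higher in the tubules, at 39.1 against 21.1 TPM (0.77, adjusted p = 0.0481 by limma). Markers of distal convoluted tubule and intercalated cells were at or near 0 in the tubules. All 25 markers summed to 3794 to 4279 TPM in whole kidney and 85.2 to 161.3 TPM in 11 tubules. Replicate 3 of set m3 stood apart at 1544 TPM, of which 1441 TPM came from 5 markers of the thick ascending limb. Whole kidney is a mixture of these cell types, and in such bulk samples fewer cells of a type and less RNA per cell cannot be told apart.

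Promoters of 3 members on which the comparisons below turn are shown here: Slc25a4, an ADP/ATP carrier and the member with the largest called difference from whole kidney, Slc25a20, the carnitine carrier and the member with the lowest F test p among the sets, and Slc25a30, which was chosen after its values were seen. Each line gives the 250 bases before the RefSeq start on build GRCm38.p6, read 5′ to 3′ on the gene's strand, with the ETS core CCGGAAG bound by the mitochondrial regulator GABP in capitals. The windows are chr8:46211063-46211312 on the minus strand for Slc25a4, chr9:108661886-108662135 on the plus strand for Slc25a20 and chr14:75787038-75787287 on the minus strand for Slc25a30.
Slc25a4: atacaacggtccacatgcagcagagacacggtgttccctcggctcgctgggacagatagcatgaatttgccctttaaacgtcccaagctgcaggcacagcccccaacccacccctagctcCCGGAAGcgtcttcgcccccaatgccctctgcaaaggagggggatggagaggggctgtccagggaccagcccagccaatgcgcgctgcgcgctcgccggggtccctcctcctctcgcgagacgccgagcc
Slc25a20: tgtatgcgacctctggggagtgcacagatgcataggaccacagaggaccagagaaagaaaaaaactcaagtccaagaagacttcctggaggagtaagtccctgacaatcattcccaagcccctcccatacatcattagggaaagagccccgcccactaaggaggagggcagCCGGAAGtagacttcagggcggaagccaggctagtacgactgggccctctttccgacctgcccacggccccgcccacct
Slc25a30: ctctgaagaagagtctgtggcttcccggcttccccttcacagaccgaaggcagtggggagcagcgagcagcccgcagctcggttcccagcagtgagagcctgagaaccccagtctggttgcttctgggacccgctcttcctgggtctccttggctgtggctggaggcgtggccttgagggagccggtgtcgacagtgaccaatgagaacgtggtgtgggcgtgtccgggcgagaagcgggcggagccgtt
Slc25a4 held 1 match that began 130 bases before the start, Slc25a20 held 1 match at 79 bases, and the Slc25a30 window held none. RefSeq windows were matched for 36 of the 47 members, in 46 windows of 32851 in all. CCGGAAG, searched on both strands, was found in 6 of the 46 member windows, those of Slc25a3, Slc25a4, Slc25a17, Slc25a20, Slc25a38 and Slc25a54, and in 6.91% of all windows. The NRF1 motif occurred in 2 member windows, of Slc25a3 and Slc25a31, and in 3.74% of all windows. No member window held the ERR motif TCAAGGTCA or the PPAR motif of direct repeats, which occurred in 0.387% and 0.0335% of all windows. These matches describe letters in the windows and are not evidence of binding.

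A small number of carriers made up most of the family's RNA. By mean TPM in the tubules, 9 members were at 100 or more, 22 between 10 and 100, 7 between 1 and 10 and 9 under 1. The 10 most abundant members were the same in tubules and whole kidney, and they held 86.3% ± 0.653 (SD, n = 12) and 87.4% ± 0.529 (SD, n = 3) of the family's TPM. Slc25a5, Slc25a39 and Slc25a3 alone held 64.7% ± 1.17 in the tubules and 65.0% ± 0.857 in whole kidney. The family total was 6717 ± 219 TPM in the tubules (SD, n = 12) and 7283 ± 155 TPM in the kidneys (SD, n = 3). The highest tubule, at 7126 TPM, lay below the lowest kidney library, at 7165 TPM. Among all tested genes, 32.0% were also lower in every tubule. The total was not computed on the other scales used below, where the direction of many members changed. Between 37 and 39 members reached 1 TPM in a tubule and 40 or 41 in a kidney library. The most even member across tubules was Slc25a3, with a coefficient of variation of 3.70%, against a median of 14.1% over the 38 tested members and 46.8% for Slc25a53.

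**Figure D1:**
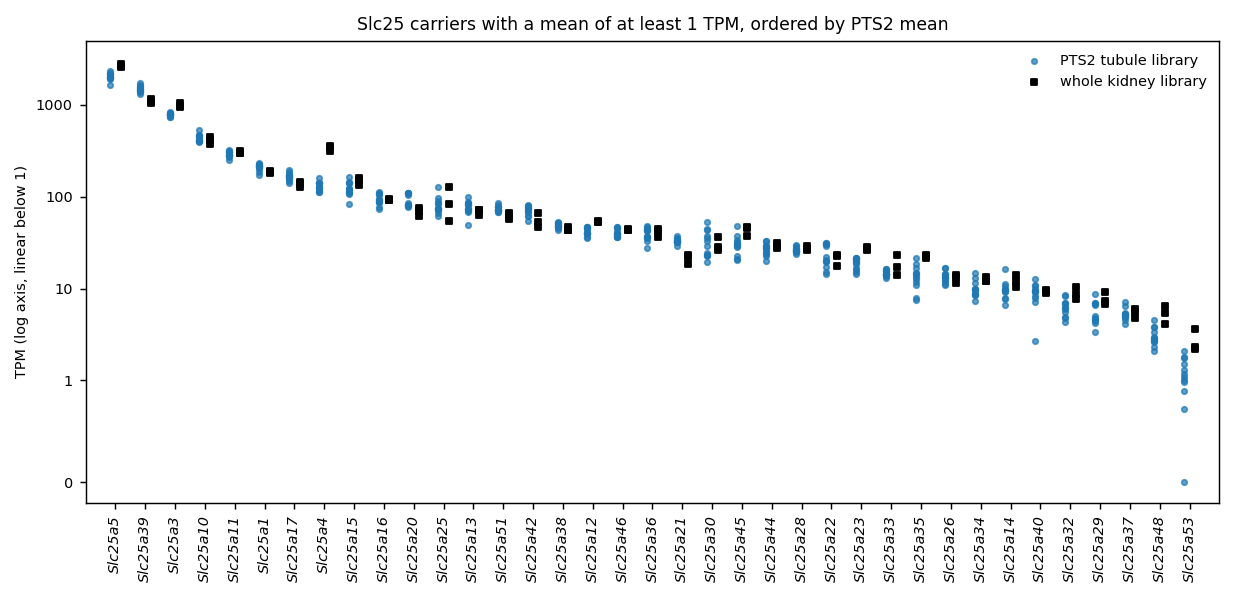
TPM on a log axis (linear below 1) of 37 of the 38 Slc25 members whose mean over all libraries reached 1 TPM, ordered by their PTS2 mean. Circles are the 12 PTS2 libraries and squares the 3 whole kidney libraries. Slc25a5, Slc25a39 and Slc25a3 lead in both, and the squares of Slc25a4 stand well above its circles.

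PTS2 tubules were compared with whole kidney by limma on log2(TPM + 1), on which scale all differences below are given and which understates changes of low genes, with p-values adjusted over all 12039 genes tested. Of the 38 members tested, 16 (42.1%) passed an adjusted p of 0.05, where 51.2% of all genes did. In the tubules 6 members were higher (15.8%, against 9.68% of all genes) and 10 were lower (26.3%, against 41.5%), while 22 did not pass. The median difference was -0.08 over the members and -0.27 over all genes. The direction of many members depended on this shift. After median-of-ratios rescaling, which brings the median of all genes to 0.00, 14 members were higher and 1 lower with a median of 0.20, and 50.5% of all calls were higher instead of 18.9%. After quantile normalization, with an all-gene median of 0.15, 13 members were higher and 4 lower with a median of 0.19, and 64.4% of all calls were higher. The members called in the same direction on all 3 scales were the 6 higher ones, Slc25a21, Slc25a39, Slc25a20, Slc25a42, Slc25a17 and Slc25a51, and 1 lower one, Slc25a4. Since each rescaling raised the all-gene median, this was easier to meet for higher members than for lower ones. Without replicate 3 of whole kidney, 3 members were higher and 7 lower, where 40.6% of all genes passed. The share of all genes was 41.6% without replicate 1 and 40.1% without replicate 2, so it fell whichever kidney library was left out. Replicate 3 of whole kidney held 4.34 TPM of Ucp1, the uncoupling protein of brown fat. No other library held more than 0.09 TPM of it. The part of this Ucp1 signal in the member counts was not tested.

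**Figure D2:**
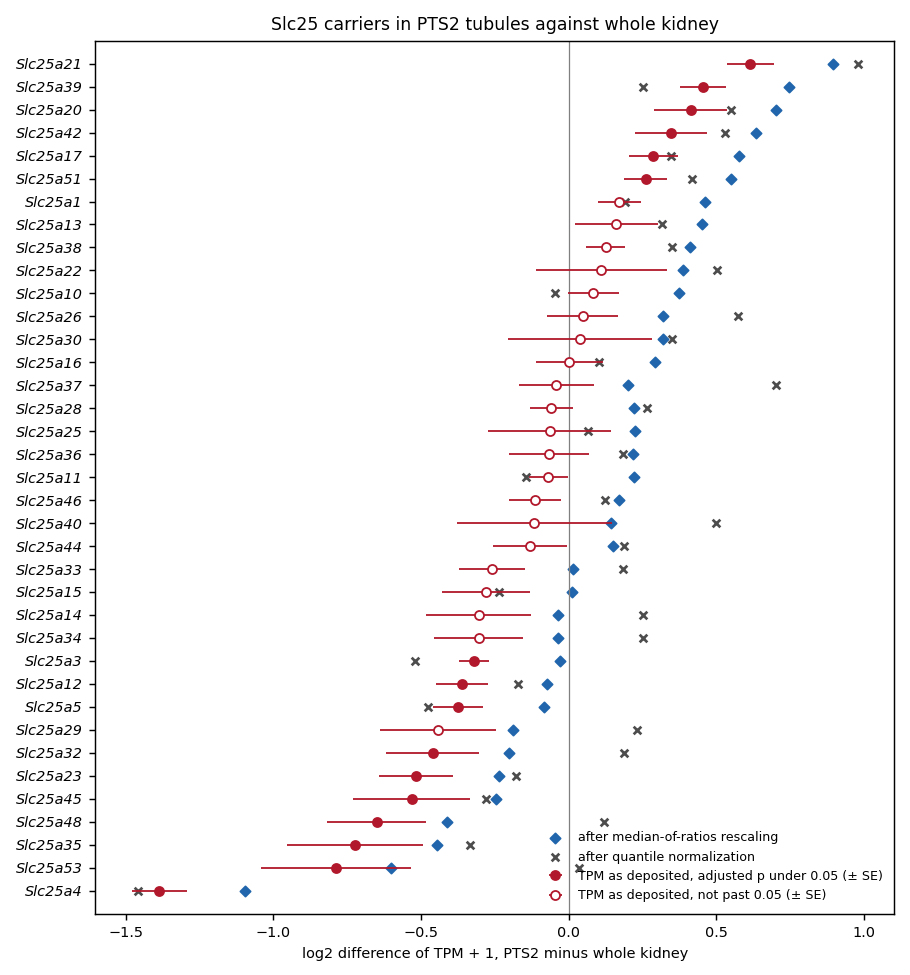
Log2 difference of TPM + 1, PTS2 minus whole kidney, for 37 of the 38 tested members. Red circles with SE bars are TPM as deposited, filled where the adjusted p is under 0.05, blue diamonds are values after median-of-ratios rescaling and crosses after quantile normalization. Slc25a4 lies far left on all 3 scales, and Slc25a21 is the highest on the deposited scale.

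The ADP/ATP carriers, which export ATP from the matrix in exchange for ADP, differed in their mix. Slc25a5, the form found in most tissues, ranged from 1645 to 2338 TPM in the 12 tubules with a median of 2044, and was at 2621, 2559 and 2794 TPM in the 3 kidneys. Slc25a4, the form that predominates in heart and muscle, ranged from 111.59 to 159.18 TPM in the tubules with a median of 127 and was at 348.68, 316.4 and 356.96 TPM in whole kidney. Neither gene's tubule range reached the kidney range. The tubule mean of Slc25a4, 130 ± 14.2 TPM (SD, n = 12), was 38.2% of the kidney mean, 341 ± 21.4 TPM (SD, n = 3). The log2 difference was -1.39 with an SE of 0.09 (limma, adjusted p = 2.46e-09). It was the single member called with a log2 difference of at least 1 in size, as were 14.9% of all genes, and it was -1.10 after median-of-ratios rescaling and -1.46 after quantile normalization. Slc25a5 differed by -0.38 ± 0.08 (adjusted p = 0.00151), which became -0.08 (adjusted p = 0.512) after median-of-ratios rescaling. Slc25a4 made up 5.99% ± 0.717 of the summed TPM of both genes in the tubules and 11.4% ± 0.370 in whole kidney. This share was 5.29% to 7.83% in single tubules and 11.0% to 11.7% in single kidneys, so the groups did not overlap. Slc25a5 has near-identical processed copies in the genome, so its level is uncertain to the extent that reads were split between them; the annotated copy Slc25a5-ps was at 0.3325 TPM in the tubules and 0.35 TPM in whole kidney. The testis form Slc25a31 was at most 0.15 TPM in any library.

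Phosphate for ATP synthesis enters through Slc25a3. It ranged from 744.93 to 846.36 TPM in the tubules with a median of 787, and was at 973.42, 947.87 and 1042 TPM in whole kidney, without overlap. The difference was -0.32 ± 0.05 (limma, adjusted p = 5.5e-05), -0.52 after quantile normalization and -0.03 (adjusted p = 0.781) after median-of-ratios rescaling. Among the ATP-magnesium/phosphate carriers, which adjust the adenine nucleotide pool of the matrix, Slc25a23 was lower in PTS2, at 18.8 ± 2.64 against 27.1 ± 0.850 TPM (-0.52 ± 0.13, adjusted p = 0.00255; -0.24, adjusted p = 0.0821, after median-of-ratios rescaling). Slc25a25 was at 54.3, 84.22 and 127.25 TPM in the 3 kidneys and 61.77 to 126.53 TPM in the tubules, so that any difference lay within the kidney spread. Slc25a24 fell under the minimum mean of 1 TPM and was not tested; it was at 0 to 0.35 TPM in the tubules and 1.49 to 1.9 TPM in whole kidney. Of 6 ATP synthase subunits listed beside these carriers, 2 were lower, Atp5e (-0.33, adjusted p = 0.0267) and Atp5o (-0.34, adjusted p = 0.00404), and 4 did not pass, a lower share of 33.3% against 41.5% of all genes. After median-of-ratios rescaling 3 were higher and 0 lower, and after quantile normalization 0 were higher and 4 lower. The Atp5e call was lost without replicate 1 of whole kidney (adjusted p = 0.120) or without replicate 3 (adjusted p = 0.0751).

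Carriers of citrate, dicarboxylates and oxoacids feed the tricarboxylic acid cycle and carry its products out. Of the 4 members, 1 was higher in PTS2 (25%, against 9.68% of all genes) and 3 did not pass. Slc25a21, the carrier of oxoadipate and oxoglutarate from lysine and tryptophan breakdown, was at 29.34 to 37.09 TPM in the tubules with a median of 32.9 and at 23.47, 22.18 and 18.66 TPM in whole kidney, which did not overlap. Its difference of 0.61 ± 0.08 (limma, adjusted p = 6.36e-06) was the largest positive one in the family, and it was 0.89 and 0.98 on the other scales. The dicarboxylate carrier Slc25a10, which exchanges malate or succinate for phosphate, ranged from 397.45 to 538.78 TPM in the tubules with a median of 429.76, around the kidney values of 379.73, 447.09 and 414.98 TPM (0.08 ± 0.09, adjusted p = 0.441). The oxoglutarate/malate carrier Slc25a11 ranged from 249.61 to 321.74 TPM in the tubules with a median of 286, and was at 300.78, 311.58 and 300.9 TPM in whole kidney (-0.07 ± 0.07, adjusted p = 0.396). The citrate carrier Slc25a1 ranged from 174.61 to 233.11 TPM in the tubules with a median of 214.76, and was at 183.34, 186.76 and 189.58 TPM in whole kidney (0.17 ± 0.07, adjusted p = 0.0630). All 3 overlapped between groups, and their calls followed the scaling. After median-of-ratios rescaling all 3 were called higher (0.37, 0.22 and 0.46). After quantile normalization Slc25a11 was called lower (-0.15, adjusted p = 0.0352), Slc25a1 was called higher (0.19, adjusted p = 0.0131) and Slc25a10 was not called (-0.05).

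The aspartate/glutamate carriers work with Slc25a11 in the malate-aspartate shuttle, which brings the reducing power of cytosolic NADH into the matrix. Slc25a12 was lower in PTS2, at 41.9 ± 3.96 against 53.8 ± 0.976 TPM without overlap (-0.36 ± 0.09, limma, adjusted p = 0.00294), and the call was lost after median-of-ratios rescaling (-0.07) and quantile normalization (-0.17). Its relative Slc25a13 did not pass, at 77.6 ± 12.4 against 68.5 ± 5.17 TPM (0.16 ± 0.14, adjusted p = 0.356), but it was called higher after median-of-ratios rescaling (0.45, adjusted p = 0.00314) and quantile normalization (0.32, adjusted p = 0.0311). Slc25a12 made up 35.4% ± 4.89 of the summed TPM of both in the tubules and 44.1% ± 2.33 in whole kidney, with overlap, since replicate 2 of set m1 reached 48.7%. Among the 4 shuttle enzymes, both aminotransferases were lower on all 3 scales. Got1, the cytosolic one, was at 41.3 ± 9.14 against 126 ± 7.47 TPM (-1.62 ± 0.17, adjusted p = 7.11e-07), and Got2, the mitochondrial one, at 107 ± 15.4 against 160.3 ± 8.61 TPM (-0.59 ± 0.12, adjusted p = 0.000459). Of the malate dehydrogenases, Mdh2 was lower by a small amount (-0.14 ± 0.04, adjusted p = 0.0155; adjusted p = 0.0792 without replicate 1 of whole kidney; 0.15 after median-of-ratios rescaling), and Mdh1 did not pass (0.06 ± 0.05, adjusted p = 0.326). The glutamate carrier Slc25a22 did not pass (0.11 ± 0.22, adjusted p = 0.700), though it did after quantile normalization (0.50, adjusted p = 0.0434). Beside it, Glud1, glutamate dehydrogenase, was lower at 101 ± 8.48 against 128 ± 7.02 TPM (-0.33 ± 0.08, adjusted p = 0.00253), or -0.04 after median-of-ratios rescaling.

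Slc25a20 exchanges acylcarnitine for carnitine and so admits long-chain fatty acids to oxidation in the matrix. It ranged from 76.75 to 110.84 TPM in the tubules with a median of 83.9, and was at 75.11, 69.99 and 61.35 TPM in whole kidney. The lowest tubule lay just above the highest kidney library. The difference was 0.41 ± 0.12 (limma, adjusted p = 0.0107), with 0.70 and 0.55 on the other scales. Without replicate 3 of whole kidney, which had the lowest value, it was 0.33 with an adjusted p of 0.0772. Cpt2, the inner-membrane enzyme that turns acylcarnitine back to acyl-CoA, was higher by 0.90 ± 0.12 (adjusted p = 7.5e-06), at 298 ± 45.4 against 157 ± 1.83 TPM without overlap. Cpt1a, which forms acylcarnitine at the outer membrane, and Crat, which handles short chains, did not pass (-0.04 and 0.15, adjusted p = 0.830 and 0.245).

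The ornithine carrier Slc25a15, which links the matrix to the urea cycle enzymes, ranged from 82.78 to 164.59 TPM in the tubules with a median of 120.61. It was at 160.16, 151.58 and 135 TPM in whole kidney, overlapping the tubules (-0.28 ± 0.15, limma, adjusted p = 0.127). It was 0.01 after median-of-ratios rescaling, and it was called lower when a single mean per set was used (-0.28, adjusted p = 0.0164). Of the 3 tested enzymes listed beside it, 2 were lower (66.7%, against 41.5% of all genes) and 1 did not pass. Oat, the matrix ornithine aminotransferase, was at 10.9 ± 4.27 TPM in the tubules and 196 ± 17.2 TPM in whole kidney (-4.13 ± 0.29, adjusted p = 4.39e-09). Ass1, the argininosuccinate synthase with which the proximal tubule makes arginine, was at 157 ± 42.4 against 317 ± 11.2 TPM (-1.05 ± 0.19, adjusted p = 0.000233). Both were lower on all 3 scales. Arg2, the mitochondrial arginase, did not pass, at 12.1 against 9.55 TPM (0.14 ± 0.46, adjusted p = 0.810). Slc25a29, a carrier of basic amino acids, was at 5.59 ± 1.59 against 7.78 ± 1.26 TPM and did not pass (-0.44 ± 0.20, adjusted p = 0.0691).

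**Figure D3:**
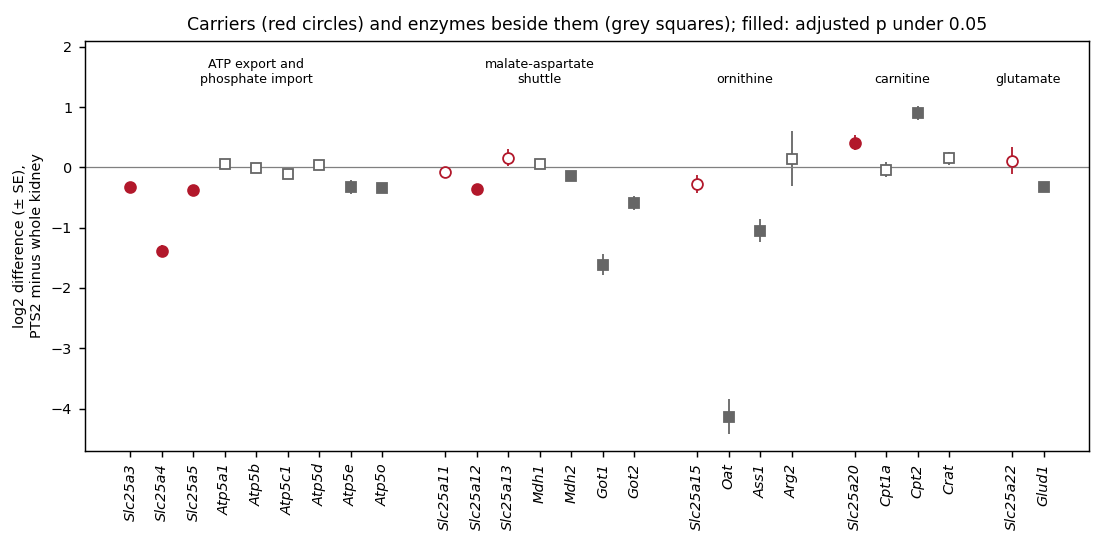
Log2 difference of TPM + 1 (± SE), PTS2 minus whole kidney, of carriers (red circles) and of enzymes listed beside them (grey squares), in 5 functional groups; filled symbols have an adjusted p under 0.05. Oat lies at -4.13 beside Slc25a15 at -0.28, and Cpt2 lies at 0.90 beside Slc25a20 at 0.41.

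Slc25a39, which brings glutathione into the matrix, was the second most abundant member. It ranged from 1306 to 1739 TPM in the tubules with a median of 1488, and was at 1149, 1083 and 1045 TPM in whole kidney, without overlap. The difference was 0.45 ± 0.08 (limma, adjusted p = 0.000147), 0.75 after median-of-ratios rescaling and 0.25 (adjusted p = 0.0135) after quantile normalization. Its close relative Slc25a40 was at 8.96 ± 2.46 TPM in the tubules and 9.37 ± 0.295 TPM in whole kidney, and did not pass (-0.12 ± 0.26, adjusted p = 0.730). Nor did Slc25a38, the glycine carrier of heme synthesis (0.12 ± 0.07, adjusted p = 0.121), Slc25a44, the carrier of branched-chain amino acids (-0.13 ± 0.13, adjusted p = 0.397), or the iron carriers Slc25a28 (-0.06 ± 0.07, adjusted p = 0.515) and Slc25a37 (-0.04 ± 0.13, adjusted p = 0.796). The erythroid heme synthase gene Alas2 was at 0.11 TPM in the tubules and 5.11 TPM in whole kidney. Its part in the levels of the iron and heme carriers was not tested. On the other scales Slc25a38 was called higher (0.41, adjusted p = 7.61e-05, by median-of-ratios and 0.35, adjusted p = 0.000227, by quantile), and so was Slc25a28 (0.22, adjusted p = 0.0175, and 0.26, adjusted p = 0.00477). Slc25a37 was called higher by quantile normalization alone (0.70, adjusted p = 0.000197).

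Of 9 carriers of cofactors and nucleotides, 3 were higher in PTS2 (33.3%, against 9.68% of all genes), 1 was lower (11.1%, against 41.5%) and 5 did not pass. Slc25a17, a carrier of coenzyme A and related cofactors in the peroxisome membrane, ranged from 141.14 to 193.22 TPM in the tubules with a median of 165.71. It was at 145.12, 137.91 and 126.2 TPM in the 3 kidneys (0.29 ± 0.08, adjusted p = 0.00937 by limma), so 1 tubule, replicate 2 of set m1, fell within the kidney range. Slc25a42, which imports coenzyme A into mitochondria, was at 70.7 ± 8.44 against 55.6 ± 10.1 TPM (0.35 ± 0.12, adjusted p = 0.0253). The NAD carrier Slc25a51 was at 74.2 ± 5.01 against 61.8 ± 4.76 TPM without overlap (0.26 ± 0.07, adjusted p = 0.00684). Calls for these 3 rested in part on single kidney libraries. Without replicate 3 of whole kidney the adjusted p was 0.0722 for Slc25a17 and 0.0637 for Slc25a51, and for Slc25a42 it was 0.188 without replicate 1 and 0.0923 without replicate 2. Slc25a16, linked to coenzyme A supply, ranged from 73.84 to 113.71 TPM in the tubules with a median of 91.8 and was at 94.99, 92.26 and 92.63 TPM in whole kidney (0.00 ± 0.11, adjusted p = 0.989), and was called higher after median-of-ratios rescaling (0.29, adjusted p = 0.00981). Slc25a32, a carrier of folate and FAD, was lower at 6.29 ± 1.32 against 8.93 ± 1.25 TPM (-0.46 ± 0.16, adjusted p = 0.0221). That call was lost without replicate 2 of whole kidney (adjusted p = 0.130) or replicate 3 (adjusted p = 0.0602), and the direction turned to 0.19 after quantile normalization. The S-adenosylmethionine carrier Slc25a26 and the pyrimidine nucleotide carriers Slc25a33 and Slc25a36 did not pass. Of these 3, Slc25a26 was called higher after quantile normalization (0.57, adjusted p = 0.00308).

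Of the members with little-known substrates, 4 of 6 tested (66.7%, against 41.5% of all genes) were lower on the deposited scale, Slc25a35, Slc25a45, Slc25a48 and Slc25a53, with 2 not passing and 3 not tested. Their differences were -0.72, -0.53, -0.65 and -0.79 (limma, adjusted p = 0.0145, 0.0326, 0.00405 and 0.0157). None of these 4 passed after median-of-ratios rescaling, and Slc25a48 and Slc25a53 turned to 0.12 and 0.03 after quantile normalization. Leaving out replicate 2 or 3 of whole kidney ended the calls of Slc25a35 (adjusted p = 0.0547 and 0.0513) and Slc25a45 (0.117 and 0.122), and leaving out replicate 1 ended that of Slc25a53 (0.110). Slc25a53, at 1.19 TPM in the tubules and 2.71 TPM in whole kidney, lay just inside the minimum mean of 1 TPM. Slc25a47, at 0.7225 and 1.68 TPM, lay just outside it. Of the 9 untested members, 4 were lower in every tubule than in every kidney library, namely Slc25a24, Slc25a27, Slc25a43 and Slc25a47. These 4 lay near the floor. The same share was not computed for all genes under the minimum mean, so this count has no background to compare with. Slc25a43, named after its values were seen, was at 0 to 0.21 TPM in the tubules and 0.92 to 1.32 TPM in whole kidney. Slc25a2, Slc25a18 and Slc25a31 were at 0.34 TPM or less in every library, and Slc25a41 and Slc25a54 were listed at 0 in all 3 kidneys and at no more than 0.03 TPM in any tubule.

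Across the 38 tested members, every tubule lay above every kidney library for 4, Slc25a39, Slc25a20, Slc25a21 and Slc25a51, where 5.76% of all tested genes did so. Every tubule lay below for 6, Slc25a3, Slc25a4, Slc25a5, Slc25a12, Slc25a23 and Slc25a53, against 32.0% of all tested genes. The 24 markers of other cell types that lay lower in all tubules moved with this comparison, and their part in the difference of any member was not tested. The member counts changed little when the tubule with thick ascending limb markers, replicate 3 of set m3, was left out: 6 were higher and 10 lower.

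Of the 55 genes listed beside the carriers 52 were tested. Of these, 6 were higher (11.5%, against 9.68% of all genes) and 17 lower (32.7%, against 41.5%), with a median of -0.06. After median-of-ratios rescaling 19 were higher and 7 lower, and after quantile normalization 9 and 17. Of 10 genes for import of carriers into the inner membrane, 2 were higher (20%, against 9.68% of all genes) and 8 did not pass. The higher ones were Timm9 (0.28, limma, adjusted p = 0.0372) and Timm22 (0.22, adjusted p = 0.0302). Without replicate 3 of whole kidney neither passed (adjusted p = 0.254 and 0.262). The pyruvate carrier gene Mpc2, at 1250 ± 143 against 989 ± 34.8 TPM, was higher by 0.33 (adjusted p = 0.0150), a call lost after quantile normalization (0.13) and without replicate 2 of whole kidney (adjusted p = 0.0715). The sideroflexin Sfxn3 was at 0.02 to 1.33 TPM in the tubules and 7.77 to 10.16 TPM in whole kidney (-3.06 ± 0.21, adjusted p = 2.57e-09). Sfxn3 and Alas2, each counted among the 17 lower genes, had tubule means of 0.19 and 0.11 TPM. They reached the minimum mean of 1 TPM only through the kidney libraries. Vdac2, a channel of the outer membrane, was lower (-0.46 ± 0.06, adjusted p = 9.29e-06), a call lost after median-of-ratios rescaling (-0.17, adjusted p = 0.0543). Of 3 genes listed for mitochondrial content, 2 were lower (66.7%, against 41.5% of all genes). Tfam, a factor that packages mitochondrial DNA, did not pass (-0.15 ± 0.12, adjusted p = 0.294). Citrate synthase Cs was lower by a small amount (-0.29 ± 0.08, adjusted p = 0.00678; 0.01 after median-of-ratios rescaling). Ppargc1a, the coactivator of mitochondrial biogenesis, was at 10.4 ± 2.76 against 50.5 ± 1.63 TPM (-2.22 ± 0.21, adjusted p = 1.46e-07) and lower on all 3 scales.

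The 3 PTS2 sets were then compared with each other by an F test in limma over 11300 genes. Of the 38 members 2 passed, Slc25a20 and Slc25a32, and 341 of all genes did (3.02%). At an unadjusted p under 0.05 there were 10 members and 16.4% of all genes. In the pairwise contrasts 0 members passed between m2 and m1 (0.54% of all genes did), 1 between m3 and m1 (Slc25a32; 3.17% of all genes) and 2 between m3 and m2 (Slc25a20 and Slc25a30; 1.97%).

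Slc25a20 was highest in set m2. Its values were 103.75, 81.04, 85.95 and 81.9 TPM in m1, 110.07, 110.84, 110.5 and 108.91 TPM in m2, and 80.76, 76.75, 81.76 and 78.99 TPM in m3. Every m2 library lay above every library of the other sets, and replicate 1 of m1 stood above the rest of its set. The F test gave an adjusted p of 0.0109 and stayed under 0.05 without any single library (0.000863 to 0.0448). Set m3 was lower than m2 by -0.46 ± 0.08 on the log2 scale (SE, adjusted p = 0.00707). The difference of m2 from m1, 0.32 ± 0.08, did not pass (adjusted p = 0.110) but did without replicate 1 of m1 (0.40, adjusted p = 0.00631). Cpt2 had set means of 286, 348 and 260 TPM in m1, m2 and m3. Its F test did not pass (adjusted p = 0.0510), but did under 5 of 7 alternatives, such as median-of-ratios rescaling (0.00426), and without replicate 1 of m1 (0.0122) or replicate 4 of m3 (0.0318). Set m3 was below m2 by -0.42 ± 0.09 (adjusted p = 0.0339). That call was lost without any of 7 single libraries, replicate 3 of m1, replicates 1, 2 and 4 of m2 and replicates 1, 2 and 3 of m3 (0.0106 to 0.109 over all 12).

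Slc25a32 was lowest in m1, at 5.55, 4.29, 4.84 and 4.76 TPM, against 5.99, 6.16, 6.31 and 6.93 TPM in m2 and 7.03, 6.79, 8.36 and 8.45 TPM in m3. Set m1 overlapped neither of the others. The F test adjusted p was 0.0438, and it rose above 0.05 after leaving out any single library except replicate 1 of m1 (0.0298 to 0.128). It also rose above 0.05 without a filter on low values (0.0695) and after quantile normalization (0.0679). Set m3 was higher than m1 by 0.56 ± 0.12 (adjusted p = 0.0206), a call that was lost without replicate 3 or 4 of m1 or replicate 3 or 4 of m3 (0.0136 to 0.0717).

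Slc25a30, a relative of the uncoupling proteins known from kidney, had values of 45.05, 22.81, 28.88 and 35.53 TPM in m1, 53.29, 37.17, 33.27 and 43.49 TPM in m2 and 23.22, 19.49, 23.3 and 24.22 TPM in m3. All of m2 lay above all of m3, and m1 overlapped both. It did not pass the F test (adjusted p = 0.0622), but did at a mean of at least 10 TPM (0.0442), after median-of-ratios rescaling (0.0111), after quantile normalization (0.0121), and without replicate 1 (0.0239) or 2 (0.0249) of m1. The contrast of m3 with m2, -0.84 ± 0.19, had an adjusted p of 0.0369, which was lost without any of 8 libraries, replicate 3 of m1, replicates 1, 2 and 4 of m2 and each replicate of m3 (0.0154 to 0.112). The glutamate carrier Slc25a22, also named after its values were seen, had means of 18.5, 30.4 and 21.5 TPM in m1, m2 and m3 and did not pass (adjusted p = 0.102).

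Ucp2, an uncoupling protein of the same protein family whose symbol falls outside the member rule, differed more than any Slc25a member named here. It was at 293.69, 312.09, 177.67 and 129.17 TPM in m1, 387.44, 364.85, 322.09 and 307.2 TPM in m2, and 52.53, 80.71, 61.39 and 50.38 TPM in m3. Set m3 lay below all other tubules and below the kidney libraries at 180.02, 122.31 and 145.86 TPM. The F test adjusted p was 0.000195, m3 was below m2 by -2.49 ± 0.24 (adjusted p = 9.83e-05) and below m1 by -1.81 ± 0.24 (adjusted p = 0.00139). Of the 50 genes listed beside the carriers that entered this comparison, 3 passed the F test, Ucp2 and Alas1 among them. Alas1, which starts heme synthesis from glycine brought in by Slc25a38, had set means of 335, 267 and 593 TPM (adjusted p = 3.77e-05).

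**Figure D4:**
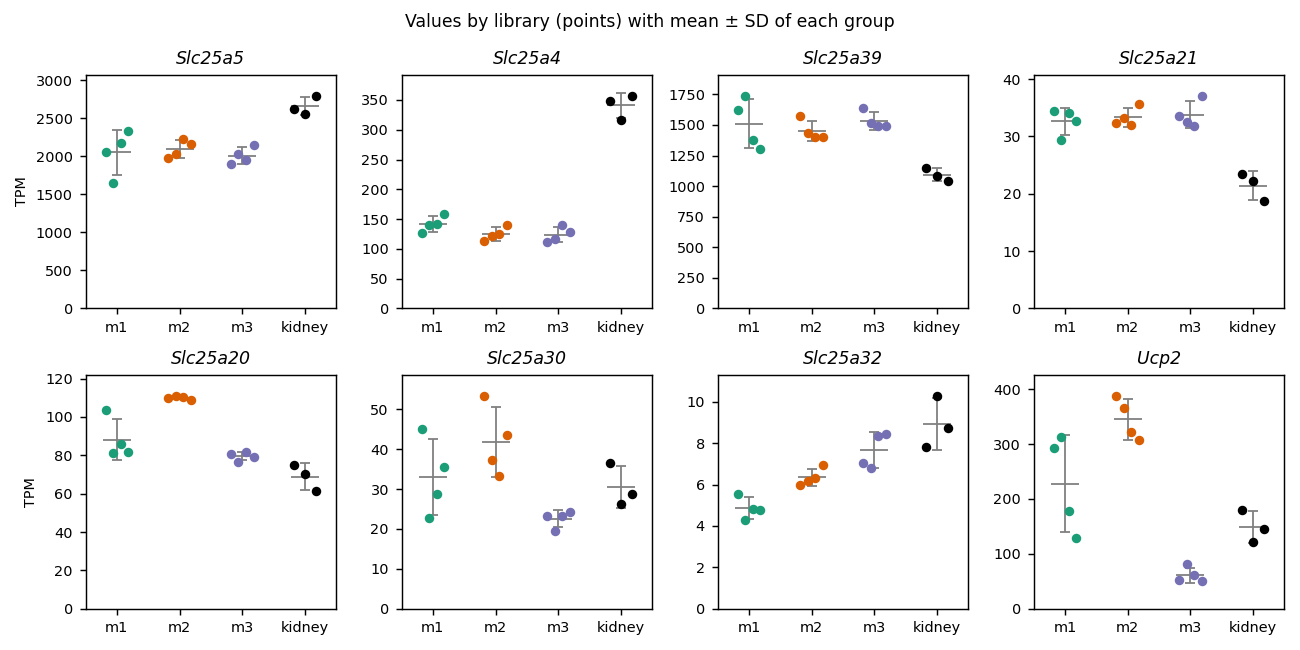
TPM by library (points) with the mean ± SD of each group (n = 4 for each PTS2 set, n = 3 for whole kidney) for 7 carriers and Ucp2. Slc25a4 is lower in all tubules than in whole kidney, Slc25a20 is highest in all 4 libraries of m2, and Ucp2 is at 80.71 TPM or less in m3.

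Single tubules also differed from their sets across many members. Replicate 2 of set m1 had the lowest of the 12 values for 15 of the 38 members and the smallest family sum, 6370 TPM. Replicate 4 of set m3 had the highest value for 15 of the 38 and the largest sum, 7126 TPM. Against whole kidney, 6 members were higher and 11 lower without the former, and 6 and 10 without the latter.

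**Figure D5:**
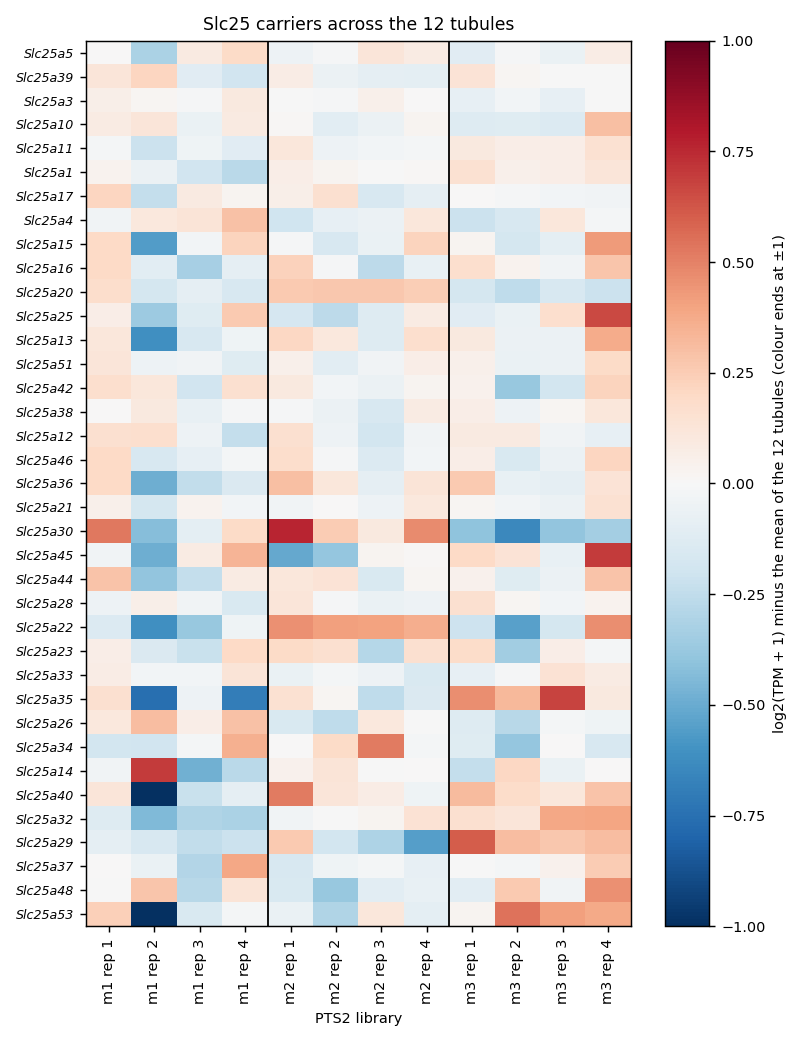
Log2(TPM + 1) minus the mean over the 12 tubules, for 37 of the 38 tested members (rows) in the 12 PTS2 libraries (columns, black lines between sets); red is above and blue below the mean, and the colour ends at ±1. Replicate 2 of m1 was the lowest column for 15 of the 38 and replicate 4 of m3 the highest for 15.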

How the data were processed

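RNA of dissected tubules and whole kidney was amplified to cDNA with a low-input kit and sequenced on an Illumina instrument, per the labels. The submitters' processing notes name STAR 2.5.1b, RSEM 1.2.31 and GRCm38.p5, without roles or parameters. The authors deposited TPM values, 1 row per gene. TPM keep no depth, so the depth per library is unknown, and no counting interval, detection floor or count test was made. Another 4 columns, which hold means and errors over libraries, were left aside.

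The description labels gave each library its group. Log2(TPM + 1) was tested by lmFit and eBayes (with trend) of limma 3.58.1, run in R 4.3.3, for genes whose mean reached 1 TPM in the libraries fitted, with Benjamini-Hochberg adjustment over all of them and a threshold of 0.05. The fit against whole kidney treated the set as a correlated block (estimated correlation 0.0669). Both fits were tested on simulated data. Members, gene lists and tests were chosen with earlier results of these data known. Any member or listed gene could be named, but a few are not reported here. Values in every library or as lowest, median and highest were given for the 10 most abundant members, Slc25a20, members called with a log2 difference of at least 1 in size, and members passing the F test. Other genes given that way were chosen after their values were seen.

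Promoter sequences came from RefSeq (GRCm38.p6). Tables and figures were made with Python 3.11.15, numpy 2.4.6, pandas 2.3.3 and matplotlib 3.10.9. The alternatives were another pseudocount (0.1), no filter, a mean of at least 10 TPM, 2 other scalings, removal of mitochondrially encoded genes, a block for the replicate number, a fit that ignored the correlation within sets, set means in place of libraries, and omission of each library in turn. In the TPM scale a change of abundant genes shifts all others, which the scalings address.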

Additional observations from a re-analysis of the deposited data

Results flagged for a closer look

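Within each set of 4 tubules, a library was singled out where its gap to the nearest of the others took up most of the set's range (Dixon's 95% limit). Of 117 such tests, 3 sets for each of the tested members and of the family total, 4 passed, where chance gives 5.85. Slc25a10, the dicarboxylate carrier, was at 538.78 TPM in replicate 4 of m3, and the next library of that set was at 401.54 TPM. Slc25a11, the oxoglutarate/malate carrier, was at 313.75 TPM in replicate 1 of m2, with the next at 285.58 TPM. Slc25a23, an ATP-magnesium/phosphate carrier, was at 15.1 TPM in replicate 3 of m2, with the next at 20.96 TPM. Slc25a29, a carrier of basic amino acids, was at 8.76 TPM in replicate 1 of m3, with the next at 6.97 TPM.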

How the results depend on the processing

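Scaling moved the comparison with whole kidney most: 14 members were higher and 1 lower after median-of-ratios rescaling, and 13 and 4 after quantile normalization, against 6 and 10. Median-of-ratios rescaling turned Slc25a11 to 0.22, Slc25a15 to 0.011, Mdh2 to 0.15 and Cs to 0.0053. Quantile normalization turned Slc25a10 to -0.047, Slc25a32 to 0.19, Slc25a48 to 0.12 and Slc25a53 to 0.035. Slc25a16, near 0, became -0.012 with mitochondrially encoded genes left out and -0.011 with the replicate number as a block, and ran from -0.022 to 0.032 without single libraries. The cause of these changes was not tested. Without single libraries the number of members called against whole kidney was 10 to 17, of which 3 to 7 were higher and 7 to 11 lower.

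Among the sets, the F test called 1 member without a filter, 4 after median-of-ratios rescaling and 1 to 4 without single libraries. Between m3 and m2 it was 1 member without a filter and 1 to 2 without single libraries. Between m3 and m1 it was 0 members at a mean of at least 10 TPM, 2 after median-of-ratios rescaling, 2 after quantile normalization and 0 to 3 without single libraries. The filter at 10 TPM removes Slc25a32, the single member called there, whose tubule mean was 6.29 TPM, so it does not test that call. The call of Slc25a32 between m3 and m1 was kept under the 6 alternatives that tested it. Its F test call was lost without a filter (adjusted p = 0.0695) and after quantile normalization (0.0679). Between m2 and m1 the number of members called was 1 after quantile normalization and 0 to 1 without single libraries.

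Same-numbered libraries of different sets correlated in their deviations from the set means at r = 0.0254 to 0.273 over genes. Of these pairs, 7 of 12 were over 0.1, and the mean was 0.143. For differently numbered pairs the mean was -0.048. Deviations cancel out within each set, which ties this second mean to the first with opposite sign, so it is no separate background. The labels give no link between same-numbered libraries, and the main fits used no replicate block. These correlations do not show that the libraries shared only a number. Of 12 libraries, 9 correlated best with one of their own number, a hint from the data and not from the design. In the fit against whole kidney, the replicate block also tied kidney libraries to tubules of the same number, a link that was not examined. With the replicate block, 16 members were called against whole kidney, 6 by the F test, 2 between m2 and m1, 4 between m3 and m1 and 3 between m3 and m2. Results that passed with the block but not without it were Slc25a15 against whole kidney (-0.38, adjusted p = 0.00801), the F tests of Slc25a30 (0.00575) and Cpt2 (0.0122), Slc25a30 between m3 and m1 (0.0351) and Slc25a20 between m2 and m1 (0.0413). Slc25a42 (0.0639) and Timm9 (0.0698) passed only without it.

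For the 60 single-gene results, 431 of 488 values under these alternatives kept direction and call, 29 lost the call, 18 gained it and 10 turned direction. Without single libraries the numbers were 760 of 834, 61, 7 and 6. Depth is unknown, so levels near 0 have no counting error attached, and 3 kidney libraries limit every comparison with whole kidney.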
